A study of Mus musculus with 4 samples.

Results

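The genes of cohesin and its loader were followed through the 4 ATAC-seq peak lists of a study of newborn mouse hearts. They were 10 genes chosen by name out of 21887 protein-coding genes: the loader genes Nipbl and Mau2, the ring genes Smc1a, Smc3 and Rad21, the STAG genes Stag1 and Stag2, the release factor Wapl, and Pds5a and Pds5b. A peak belonged to a gene when its summit, the base with the most reads, lay inside the gene or within 10 kb of either end of it. ATAC-seq cuts open chromatin with a transposase and sequences the cut fragments, so a peak marks a place where reads pile up over the local background. Hearts at P0, the day of birth, came from wild-type mice (WT, 2 libraries) and from mice with raised levels of the microRNA miR-187 (2 libraries). Per the study, mouse miR-187 was knocked in as a single copy at the Rosa26 site on a C57BL/6J background, driven by the Tek (Tie2) promoter, which is active in endothelial cells. The study gives the mice compared by ATAC-seq as +/+ and KI/KI, homozygous for this allele, whereas the sample labels give no zygosity. The sex of the animals and how many hearts went into a library are not given in the labels. Input was described by the study as endothelial cells caught on beads against CD31, whereas the labels name heart tissue alone.

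Cohesin is a protein ring that holds DNA strands together. Smc1a and Smc3 form the long arms of the ring, Rad21 closes it, and Stag1 or Stag2 binds to Rad21. Nipbl, with its partner Mau2, brings the ring onto DNA and drives it to pull out loops, Wapl releases it, and Pds5a and Pds5b bind the ring and act both in its release and in its stabilisation. Loss of 1 copy of NIPBL in people causes Cornelia de Lange syndrome, which often includes heart septal defects, and the study names Nipbl as a target of miR-187. A microRNA acts on the messenger RNA, and chromatin accessibility at these genes is a separate measure from their messenger RNA or protein.

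The libraries differed in depth. Each list gives a fold over background and a p-value for each peak, and from this pair a whole number of reads at the summit and a local background could be solved for 100% of peaks. Reads were assumed to be extended to 200 bp, since the caller's setting is not given in the sources used here. On that assumption the lowest background of a list gave read densities of 1751 and 5227 reads per Mb for WT replicates 1 and 2 and of 2016 and 1032 for miR-187 replicates 1 and 2. Between the deepest and the shallowest library the density differed 5.06 times, and the lists held 9452, 12298, 7496 and 1483 peaks in the same order, which is kept for all sets of 4 values that follow. At the lowest background a call took at least 4, 7, 5 and 4 reads. Inside or within 10 kb of a gene, 38.0%, 47.1%, 33.5% and 6.75% of all protein-coding genes had a peak. Of 12 endothelial genes, 4, 9, 5 and 1 had one, and only Emcn had none in any list. Within 1 kb of an end, 2, 3, 2 and 1 of the 12 had a peak, beside 21.0%, 29.9%, 19.4% and 3.07% of all genes. Of 12 cardiomyocyte genes, 4, 4, 3 and 0 had a peak. These were at Tnni1, Tnnt2, Myl2, Tnni3, Myl7 and Ryr2, with none in any list at Myh6, Myh7, Actc1, Ttn, Nppa or Actn2. Within 1 kb of an end the cardiomyocyte counts were 2, 0, 0 and 0. Fibroblast genes counted 4, 5, 1 and 0 of 7 by the 10 kb rule and 2, 4, 0 and 0 at an end, and mural, immune and erythroid genes (4 of each) had at most 2 with a peak in any library. By the 10 kb rule, the endothelial, cardiomyocyte and fibroblast counts were lowest in the shallowest library. The only mural gene with a peak was Acta2, in that library alone. A summit within 1 kb of a start site listed by RefSeq was found at 0, 2, 1 and 0 of the 8 endothelial genes with such a site. The counts were 2, 2, 0 and 0 of 4 fibroblast genes and 0 in every list for the 12 cardiomyocyte genes. Of all genes with a listed start site, 22.4%, 32.2%, 21.0% and 3.23% had such a summit. The part of these cell types in the values below was not tested.

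Start sites were listed by RefSeq (GRCm38.p6) for 7 of the 10 genes, and none was listed for Nipbl, Rad21 or Stag2. There were 8 start sites, with a window of 300 bases at each, 250 before the start site and 50 from it. Of these windows, 4 are shown for the genes that had a start-site peak in both groups, together with the window of N4bp2l2, the neighbour of Pds5b, which held the only peak near any of the genes in miR-187 replicate 2. Capitals mark CCAAT, the letters bound by NF-Y, and GGGCGG, the GC box bound by SP1, and TATAAA, the TATA box, each on either strand, so that ATTGG is CCAAT read on the other strand, CCGCCC is GGGCGG and TTTATA is TATAAA.
Stag1, chr9:100643198-100643497 (plus strand): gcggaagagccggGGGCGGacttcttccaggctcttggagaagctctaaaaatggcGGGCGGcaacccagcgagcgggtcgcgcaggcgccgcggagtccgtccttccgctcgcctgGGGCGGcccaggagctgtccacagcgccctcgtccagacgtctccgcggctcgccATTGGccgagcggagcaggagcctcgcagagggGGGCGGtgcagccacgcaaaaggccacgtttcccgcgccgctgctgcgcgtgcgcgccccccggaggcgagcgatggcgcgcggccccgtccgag
Wapl, chr14:34673678-34673977 (plus strand): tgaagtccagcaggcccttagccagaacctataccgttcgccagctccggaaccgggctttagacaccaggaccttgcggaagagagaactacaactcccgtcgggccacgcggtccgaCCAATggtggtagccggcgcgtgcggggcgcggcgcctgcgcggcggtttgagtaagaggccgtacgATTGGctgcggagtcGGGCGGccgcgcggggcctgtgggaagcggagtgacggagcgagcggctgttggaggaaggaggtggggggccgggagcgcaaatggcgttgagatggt
Mau2, chr8:70042685-70042984 (minus strand): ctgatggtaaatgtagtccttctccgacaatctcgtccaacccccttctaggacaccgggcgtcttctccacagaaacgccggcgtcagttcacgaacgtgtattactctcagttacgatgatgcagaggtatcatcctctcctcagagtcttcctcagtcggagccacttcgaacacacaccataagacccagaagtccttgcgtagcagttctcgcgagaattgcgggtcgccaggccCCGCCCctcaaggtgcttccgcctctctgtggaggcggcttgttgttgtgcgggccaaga
Smc1a, chrX:152016178-152016477 (plus strand): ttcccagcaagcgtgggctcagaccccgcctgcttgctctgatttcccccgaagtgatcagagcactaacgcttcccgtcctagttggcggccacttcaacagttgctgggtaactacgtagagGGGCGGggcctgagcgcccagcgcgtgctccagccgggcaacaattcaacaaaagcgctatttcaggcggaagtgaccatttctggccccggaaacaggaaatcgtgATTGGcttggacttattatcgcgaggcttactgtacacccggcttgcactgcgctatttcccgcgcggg
N4bp2l2, chr5:150665563-150665862 (minus strand): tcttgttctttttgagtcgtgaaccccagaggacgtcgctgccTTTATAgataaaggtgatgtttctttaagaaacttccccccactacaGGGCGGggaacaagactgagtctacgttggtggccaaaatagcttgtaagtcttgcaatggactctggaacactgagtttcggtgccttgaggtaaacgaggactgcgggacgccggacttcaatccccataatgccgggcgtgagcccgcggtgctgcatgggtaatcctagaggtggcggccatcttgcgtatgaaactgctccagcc
The Stag1 window held GGGCGG on the gene's strand with first bases at -237, -194, -133 and -45, counted with the start site as 0, and CCAAT on the other strand at -78. In the Wapl window CCAAT stood at -131 and, on the other strand, at -64, with GGGCGG at -49. Smc1a had GGGCGG at -126 and CCAAT on the other strand at -19, and Mau2 had GGGCGG alone, on the other strand at -10. Among the 8 windows, 7 held GGGCGG and 4 held CCAAT, against 46.2% and 38.2% of the 21263 windows of protein-coding genes. No window of the 10 genes held TATAAA, nor the ETS letters CCGGAAG, the NRF1 letters GCGCATGCG or the YY1 letters AAGATGGCG, which 12.6%, 11.6%, 2.35% and 1.83% of all windows hold on either strand. No searched motif contains another. The windows of the genes had a median G+C of 66.0% and a median of 33.5 CpG, against 56.3% and 13 in all windows, and the Stag1 window had 73.7% and 43.

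The WT lists held a peak at 4 (replicate 1) and 9 (replicate 2) of the 10 genes, and the miR-187 lists at 5 (replicate 1) and 1 (replicate 2). The values of the groups overlapped, since miR-187 replicate 1 stood above WT replicate 1. Of all protein-coding genes, 38.0%, 47.1%, 33.5% and 6.75% had a peak by the same rule. Long genes catch more peaks, and among the 7462 genes between the shortest and the longest of the 10 (28208 to 360836 bp) the shares were 48.7%, 58.0%, 42.7% and 9.37%. The 10 genes thus lay below the genes of like length in WT replicate 1 (40%) and above them in WT replicate 2 (90%), with 50% and 10% in the miR-187 libraries. WT lists averaged 6.5 ± 3.54 genes, miR-187 lists 3.0 ± 2.83 (SD, n = 2 each), and the difference of -3.5 was about as large as the spread between replicates of a group. With reads thinned to the lowest density of the 4 libraries it was -0.248, and with the same number of peaks taken from each list -0.5. In libraries made from many cells, fewer cells of a type and less open chromatin per cell cannot be told apart.

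**Figure D1:**
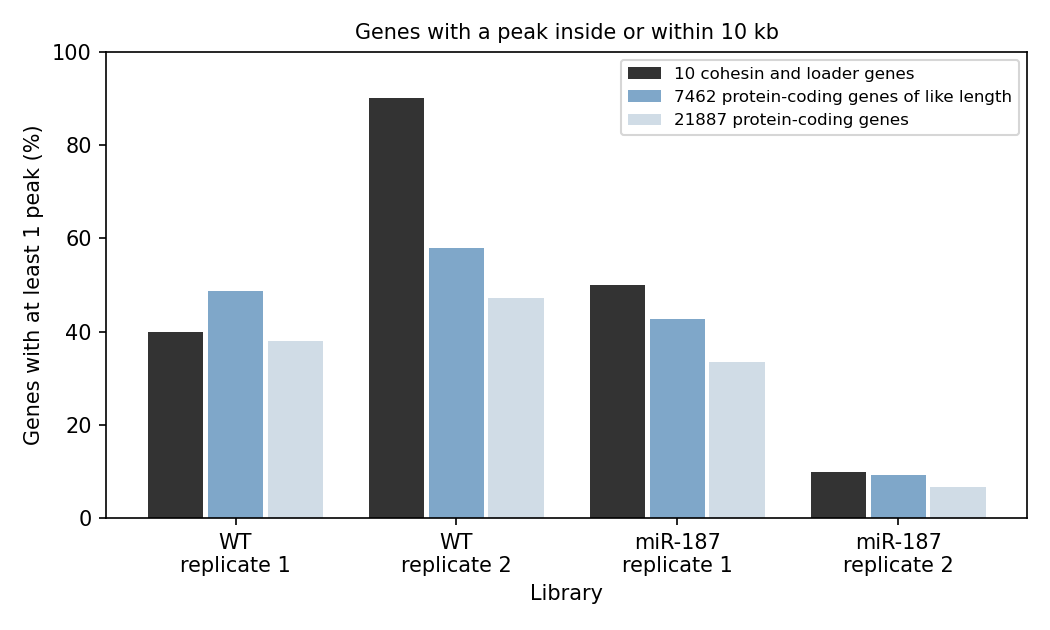
Share of genes (%) with at least 1 peak inside or within 10 kb, by library, for the 10 genes (black), for protein-coding genes of like length (blue) and for all protein-coding genes (light blue). The black bars stand at 40, 90, 50 and 10%, and all series are lowest in miR-187 replicate 2.

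In peaks rather than genes the lists gave 4, 11, 5 and 1, or 21 in all, with means of 7.5 ± 4.95 and 3.0 ± 2.83 (SD, n = 2 each). Per Mb of sequence around the genes this was 3.03, 8.34, 3.79 and 0.758 peaks, beside 5.97, 8.10, 4.93 and 0.872 around all protein-coding genes. The ratios of the former to the latter were 0.508 and 1.03 for WT and 0.769 and 0.869 for miR-187, and so the miR-187 ratios fell between the WT ratios. Of the 21 peaks, 15 had the summit inside the gene and 17 had it within 1 kb of a listed start site of some gene.

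**Figure D2:**
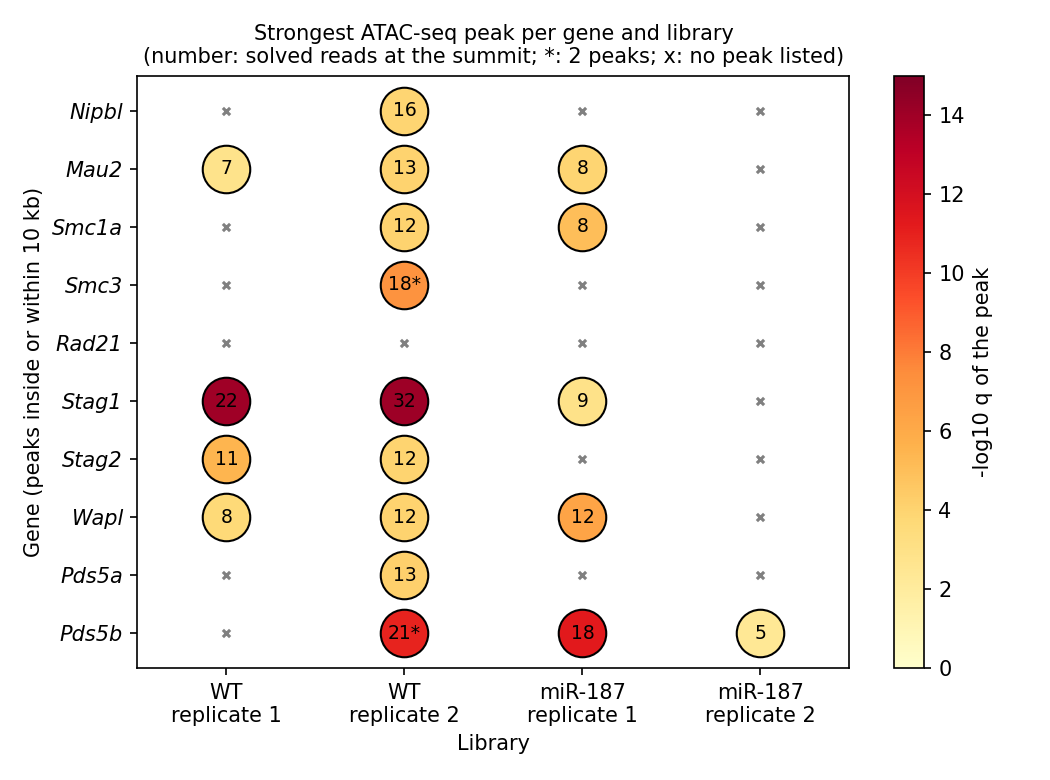
The strongest peak of each gene (rows) in each library (columns), coloured by its -log10 q, with the solved number of reads at its summit printed inside, a star where the gene had 2 peaks and a cross where none was listed. WT replicate 2 has a circle in every row but Rad21, and miR-187 replicate 2 has a single circle, of 5 reads at Pds5b.

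Of the loader genes, Nipbl had 1 peak, in WT replicate 2 alone. It lay at chr15:8445416-8445616 (GRCm38) inside Nipbl (chr15:8289824-8465315), with the summit 19796 bp from the gene's upper end and 344 bp from an end of LOC102634078, a predicted protein-coding gene within Nipbl. Its summit had 16 reads over a local background of 3.14 reads per 200 bp, where a call took 12, with a fold of 4.11 and a -log10 q of 3.97 (percentile rank 35.2 within its list). No library had a summit within 1 kb of either end of Nipbl. As no start site was listed for Nipbl, and a start site can lie inside a gene's outer limits, the distance of this peak from one is not known. The nearest summits to Nipbl in the other lists were 46725 bp away (WT replicate 1), 120844 bp away (miR-187 replicate 1) and 2016882 bp away (miR-187 replicate 2). The lists therefore do not separate the groups at Nipbl (1 peak in 1 of the WT lists and 0 in the others, exact permutation p = 1, n = 2 per group).

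Mau2, which binds and steadies Nipbl, had 1 peak at its start site in 3 libraries and none in miR-187 replicate 2. Mau2 runs on the minus strand at chr8:70014527-70042734, and 34 bp separate its start from the neighbouring gene Sugp1, so peaks there sit at both genes. Summits fell 323 bp inside the start site in WT replicate 1 (7 reads, fold 4.88, -log10 q 2.84), at -7 in WT replicate 2 (13 reads, fold 4.67, -log10 q 4.09) and 23 bp inside it in miR-187 replicate 1 (8 reads, fold 5.63, -log10 q 3.93). The WT replicate 2 and miR-187 replicate 1 peaks overlapped by 76 bp and formed 1 region at chr8:70042566-70043270, while the WT replicate 1 peak ended 3 bp short of it. The window printed for Mau2 had 277 of its bases under the WT replicate 2 peak and 99 under that of miR-187 replicate 1.

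Among the ring genes, Smc1a had a peak in WT replicate 2 and in miR-187 replicate 1. Smc1a (chrX:152016428-152061973) is an X-linked gene of the cohesin arm, and its start overlaps the neighbouring gene Ribc1 by 459 bp. The WT replicate 2 summit lay 137 bp inside the start site with 12 reads (fold 4.81, -log10 q 4.05), and that of miR-187 replicate 1 lay 376 bp inside it with 8 reads (fold 6.41, -log10 q 5.07). They overlapped by 215 bp at chrX:152016482-152016979, outside the window printed for Smc1a. Smc3 (chr19:53600396-53645831), the partner arm, had 2 peaks in WT replicate 2 and none elsewhere. Both flanked its start site, at -365 with 18 reads (fold 5.79, -log10 q 7.15) and 400 bp inside it with 16 reads (fold 5.12, -log10 q 5.54). Rad21 (chr15:51962604-51993538), which closes the ring, had no peak in any list. The summits nearest to it were 1683945 and 163645 bp away for WT and 163593 and 342705 bp away for miR-187. A list holds only what passed the caller's threshold, so Rad21 was not detected at these depths, which does not show closed chromatin.

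Stag1 had the peaks of highest -log10 q among the 10 genes, both in WT. Its product and that of Stag2 are alternative subunits that bind cohesin to DNA and to partners such as CTCF. Both WT libraries had the summit at the same base, 115 bp inside the listed start site. WT replicate 1 had 22 reads there over a background of 1.36 (fold 9.75, -log10 q 14.0, percentile rank 99.7), and WT replicate 2 had 32 reads over 3.82 (fold 6.85, -log10 q 14.1, percentile rank 98.2). These peaks were 677 and 1032 bp wide and covered all 300 bases of the window printed for Stag1. In miR-187 replicate 1 the summit lay at -761 from the start site, 876 bp from the WT summit, with 9 reads over 1.16 (fold 4.63, -log10 q 2.88, percentile rank 17.4). That peak overlapped the WT replicate 2 peak by 119 bp, stopped 236 bp short of the WT replicate 1 peak, and covered none of the window. In miR-187 replicate 2 the nearest summit to Stag1 was 90815 bp away. The 3 peaks merged into 1 region at chr9:100642607-100643719, so the count of libraries with a peak (3) hides that the WT summit base was not within a peak in either miR-187 list.

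Stag2 (chrX:42149297-42277186) was the single gene of the 10 that had a peak in each WT list but none with miR-187. WT replicate 1 had 11 reads at the summit (fold 6.52, -log10 q 5.49, percentile rank 84.6) and WT replicate 2 had 12 reads (fold 4.78, -log10 q 4.0, percentile rank 35.7). The summits were 7 bp apart, 2844 and 2851 bp inside the gene's lower end, in a region at chrX:42152007-42152329. In miR-187 replicates 1 and 2 the nearest summits were 3514447 and 5022538 bp away. With 1, 1, 0 and 0 peaks the groups did not overlap, and the exact permutation p of 0.33 (2-sided, n = 2 per group) is the smallest that 2 libraries against 2 can give. When peaks under a -log10 q of 5 were dropped, this pattern was lost at Stag2 and found at Stag1. The other 9 genes each had an exact permutation p of 1.

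Wapl, which opens the ring and takes cohesin off DNA, had a peak over its start site in 3 libraries. Summits lay at -75 in WT replicate 1 (8 reads, fold 5.49, -log10 q 3.68), at -127 in WT replicate 2 (12 reads, fold 4.85, -log10 q 4.10) and at -123 in miR-187 replicate 1 (12 reads, fold 6.91, -log10 q 6.34). The miR-187 peak was the highest of the 3 in -log10 q, at a lower depth than WT replicate 2, and alone of the 3 it reached a -log10 q of 5. The peaks covered 300, 297 and 220 bases of the window printed for Wapl, within a region at chr14:34673544-34674073 that also lies in the noncoding RNA gene 5830448L01Rik. The nearest summit to Wapl in miR-187 replicate 2 was 1224988 bp away.

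Of the PDS5 genes, Pds5a had 1 peak, in WT replicate 2, 1310 bp inside its start site with 13 reads (chr5:65696833-65697032, fold 4.73, -log10 q 4.18). Pds5b had a start-site peak in WT replicate 2 alone, with the summit at -252 and 16 reads (chr5:150673448-150673937, fold 6.16, -log10 q 7.05). A stronger region lay further upstream at chr5:150665580-150666005, at the start site of N4bp2l2, and it was the only one of all regions at these genes found in both miR-187 lists. Its summit had 21 reads in WT replicate 2 (fold 7.59, -log10 q 10.9), 18 in miR-187 replicate 1 (fold 9.13, -log10 q 11.3) and 5 in miR-187 replicate 2 (fold 4.84, -log10 q 2.38), where a call took 4. No peak was listed there in WT replicate 1. The 3 peaks covered 281, 283 and 263 bases of the window printed for N4bp2l2 and lay 7885, 7963 and 7949 bp from Pds5b, so they belong to the Pds5b count only through the 10 kb rule.

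**Figure D3:**
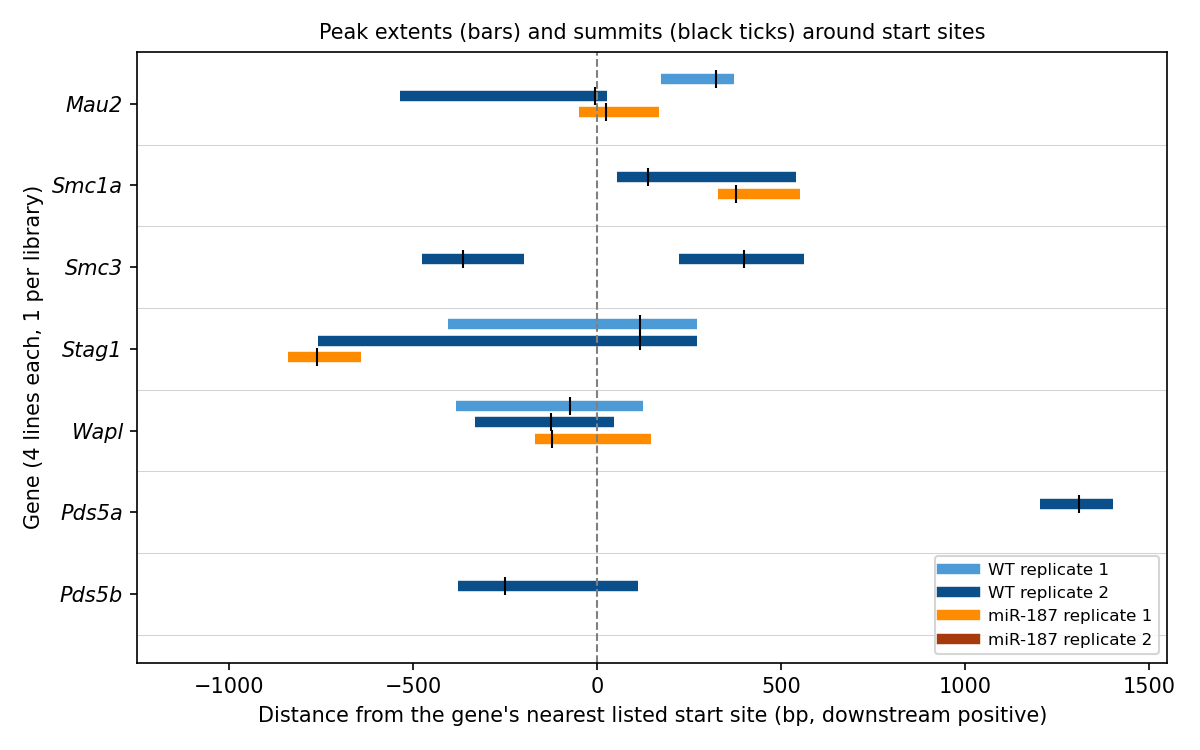
Extent (bars) and summit (black ticks) of each peak near the start site of the 7 genes with a listed one, in bp from that start site, with 1 line for each library. The WT summits at Stag1 coincide at 115 bp, the miR-187 replicate 1 summit there is at -761, and no bar belongs to miR-187 replicate 2. The peaks about 8 kb upstream of Pds5b are not drawn.

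Peaks at start sites were counted on their own. A summit within 1 kb of a listed start site was found at 3 of the 7 genes in WT replicate 1 (Mau2, Stag1 and Wapl) and at 6 in its replicate 2 (all but Pds5a). The miR-187 lists had 4 (Mau2, Smc1a, Stag1 and Wapl) and 0. Of the 17492 genes with a listed start site, 22.4%, 32.2%, 21.0% and 3.23% had one. The difference of group means was -2.5 genes, with miR-187 replicate 1 again between the WT libraries. Within 1 kb of either end of the gene, which can also be its 3′ end, the counts were 1, 4, 2 and 0 of 10, against 21.0%, 29.9%, 19.4% and 3.07% of all genes. This count leaves out Stag1 and Wapl, whose listed start sites lie inside the gene's outer limits, with summits 44978 bp or more and 1422 bp or more from the nearer end.

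The 10 genes fell into 6 patterns of presence over the 4 lists. Mau2, Stag1 and Wapl had a peak in all lists but that of miR-187 replicate 2, a pattern of 16.9% of all genes. Nipbl, Smc3 and Pds5a had one in WT replicate 2 alone (8.64% of all genes), Smc1a in WT replicate 2 and miR-187 replicate 1 (6.92%), Stag2 in both WT lists (9.04%), Pds5b in all but WT replicate 1 (0.713%) and Rad21 in none (41.5%). Mau2, Stag1, Stag2 and Wapl, the 4 genes present in each WT list, split into 1 absent from the miR-187 lists, 3 with a peak in miR-187 replicate 1 and 0 with one in its replicate 2. Such a peak need not be the WT one, since at Stag1 and Mau2 the miR-187 peak did not overlap that of WT replicate 1. The shares over the 6616 genes present in each WT list were 29.9%, 67.2% and 14.0%. The reverse of the Stag2 pattern, a peak with miR-187 in each list but none in WT, was found at 0 of the 10 genes and at 0.169% of all genes. Fewer peaks in both miR-187 lists than in either WT list were found at Stag2 alone, as at 11.6% of all genes, and more peaks at none of the 10, as at 0.174% of all genes. A count of 1 gene in 10 is close to these background shares, so nothing about cohesin genes as a set can be read from the loss at Stag2.

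Merged over the lists, the 21 peaks made 12 regions, of which 6 were found in 1 library, 3 in 2 libraries, 3 in 3 libraries and 0 in all 4. The regions in 3 libraries were those at Stag1, at Wapl and upstream of Pds5b, and those in 2 were at Mau2, Smc1a and Stag2. Of the regions in 1 library, 5 belonged to WT replicate 2, and the other was the WT replicate 1 peak at Mau2.

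Reads behind these calls were few. Summits had 7 to 22 and 12 to 32 reads in the WT libraries, and 8 to 18 and 5 in those of miR-187. The peak at Nipbl passed its threshold by 4 reads, that of Stag2 by 5 in WT replicate 1 and 4 in WT replicate 2, and the Stag1 peaks of the WT libraries by 14 and 19. If each read of WT replicate 2 had been kept in proportion to the density of another library, 5.84 of its 11 peaks were expected to pass at the density of WT replicate 1, 5.94 at that of miR-187 replicate 1 and 2.17 at that of miR-187 replicate 2. The Nipbl peak had a 26.8% chance to be called at the density of WT replicate 1, and chances of 42.6% and 7.76% at those of miR-187 replicates 1 and 2. At the density of miR-187 replicate 1, the chance was 29.8% for the Stag2 peak of WT replicate 2 and 96.4% for its Stag1 peak. At the density of WT replicate 1 (1751 reads per Mb, against 2016 for miR-187 replicate 1), the Stag2 peak of WT replicate 2 had 37.3%. The list of WT replicate 1 held Stag2 with 11 reads. The WT replicate 2 peak upstream of Pds5b had 88.2% at that density, and WT replicate 1 had no peak there. At the density of miR-187 replicate 2, the Stag1 and Stag2 peaks of WT replicate 1 had chances of 99.9% and 88.7%. Its Mau2 and Wapl peaks had 39.7% and 57.0%, and the Stag1 and Stag2 peaks of WT replicate 2 had 62.7% and 6.93%. The peaks of miR-187 replicate 1 had 96.1% (upstream of Pds5b), 82.9% (Wapl), 66.3% (Mau2 and Smc1a) and 27.8% (Stag1). Of all these, only the peak upstream of Pds5b was listed in miR-187 replicate 2. These chances take background density as the measure of depth, start from peaks that had passed in their own list and cover counting error only, with each read taken as a separate molecule. The part of depth in the missing peaks was not tested.

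**Figure D4:**
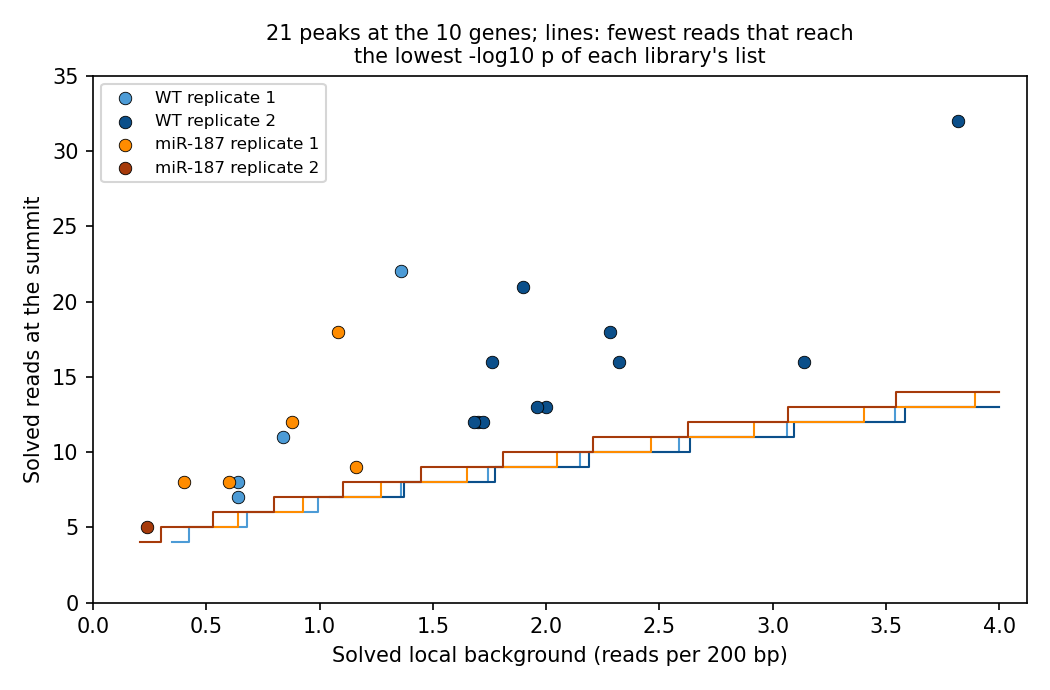
Solved reads at the summit against the solved local background (reads per 200 bp) for the 21 peaks, coloured by library, with step lines for the fewest reads that reach the lowest -log10 p of each list. Most WT replicate 2 points lie at 12 to 18 reads, the Stag1 peak stands highest at 32 reads, and the miR-187 replicate 2 point has 5 reads.

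Genes that work with cohesin, taken from 2 lists written by name, were read in the same way. Of 22 cohesin-related genes (regulators, meiotic subunits and partners), 12, 15, 8 and 3 had a peak inside or within 10 kb, beside 38.0%, 47.1%, 33.5% and 6.75% of all protein-coding genes. Of the 10 present in each WT list, 5 were absent from the miR-187 lists, beside 29.9% of all such genes. Genes of both lists were named for a peak at an end in 3 libraries or in WT alone, a rule with no counterpart for miR-187 alone. The share of all protein-coding genes with this WT-alone pattern at an end was not counted. Whether the pattern is more frequent in these lists than among all genes was therefore not tested. A peak within 1 kb of an end was found at 7, 9, 2 and 2 of the 22 genes, beside 21.0%, 29.9%, 19.4% and 3.07% of all genes. Of the 18 with a listed start site, 9, 8, 5 and 2 had a summit within 1 kb of such a site. The shares of all genes with a listed start site were 22.4%, 32.2%, 21.0% and 3.23%. Ctcf, the factor at which cohesin loops stop, had a peak within 1 kb of an end in each WT library (-log10 q 3.89 and 5.73) and none with miR-187. The same held for Top2b, a topoisomerase found with cohesin and CTCF (3.32 and 6.0), and for Esco2, which acetylates Smc3 (2.84 and 4.91). Ankrd11, a chromatin regulator, had one in each WT library (2.86 and 8.33) and in miR-187 replicate 2 (3.10). No gene of either list had a peak at an end in both miR-187 libraries and in neither of WT. Cdca5, which shields cohesin from Wapl and was picked after its values were seen, had one in WT replicate 1 (1.96) and a stronger one in miR-187 replicate 1 (8.23).

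Of 15 relatives of cohesin (genes of condensin and of the SMC5/6 complex, and Smchd1), 11, 14, 9 and 0 had a peak by the 10 kb rule. The shares of all genes by this rule are those given above. Of the 10 present in each WT list, 3 were absent from the miR-187 lists, close to the 29.9% of all such genes. At an end, 10, 13, 8 and 0 of the 15 had a peak, beside the same shares of all genes as above. Of the 13 with a listed start site, 6, 10, 6 and 0 had a summit within 1 kb of such a site. Ncapg and Ncapd2, subunits of condensin, had peaks within 1 kb of an end in every library but miR-187 replicate 2, with -log10 q of 7.32, 13.7 and 3.20 for Ncapg and of 6.84, 10.6 and 4.29 for Ncapd2. Smc6, Nsmce2, Smc5 and Smchd1 had the same presence, and at Smc5 (2.13, 2.50 and 5.03) and Smchd1 (5.11, 6.57 and 9.39) the miR-187 value was the highest of the 3. Smc4, an arm of condensin, had a peak there in each WT library (9.72 and 4.66) but none with miR-187, as did Nsmce4a (3.29 and 2.96). Here too, no share of all genes with this pattern at an end was counted for comparison.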

How the data were processed

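ATAC-seq libraries of P0 hearts (WT and miR-187, 2 each, grouped by sample title) were given as 1 peak list per library in 10 narrowPeak columns, and replicates were not pooled. The submitters' processing notes name FastQC, Bowtie2 2.2.6, SAMtools 1.10, deepTools 3.3.2, MACS2 2.2.7.1, ChIPseeker, DiffBind and HOMER 4.11 and the build mm10 (GRCm38). Which settings were used and how duplicate and mitochondrial reads were handled is not given in the sources used here. Each deposited list holds the authors' score, their fold enrichment at the summit, and their -log10 p and -log10 q, all of which depend on depth.

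Genes came from a RefSeq table of GRCm38.p6 (protein-coding, chromosomes 1 to 19, X and Y), and start sites from RefSeq promoter windows. Coordinates are 1-based. The extension of reads to 200 bp, used for densities, was assumed. Summit reads and background were solved from fold = (reads + 1)/(background + 1) and the upper Poisson tail, within 0.0005 in -log10 p, and the solver was tested on simulated data. Regions were peaks merged at 1 bp overlap. For the peaks per gene, all 6 ways to share the libraries between the groups were enumerated in an exact 2-sided permutation test (lowest possible p 0.33, also after Benjamini-Hochberg adjustment over 21887 genes). No source says that the libraries came from separate animals, so this p measures only the spread between libraries. The members, the related lists and the markers were chosen by name with earlier results of these data known. Named genes were all 10 members and, of the related lists, genes with a peak within 1 kb of an end in at least 3 lists, or in both WT lists and neither miR-187 list. Cdca5 did not meet this rule and was named after its values were seen. Alternatives were other windows, interval overlap, a -log10 q of at least 5, an equal number of peaks, thinning to the lowest density, leaving out single libraries and a replicate block. The start-site count was added after the data were seen. Scripts ran in Python 3.11.15 with scipy 1.17.1, pandas 2.3.3, numpy 2.4.6 and matplotlib 3.10.9.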

Additional observations from a re-analysis of the deposited data

How the results depend on the processing

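Of 60 recomputed values over the 10 genes, 53 moved by less than 1 SD between replicates (for counts, by at most 1.5 times), 6 moved further and 1 reversed. That SD is about as large as the differences themselves, so a difference can shrink to near 0 within it. For single genes, 4 of 110 values changed sign from a difference other than 0, and many others shrank or went to 0. With reads thinned to the lowest background density, the difference in peaks (miR-187 minus WT) was -0.313 in place of -4.5, that in genes with a peak -0.248 in place of -3.5, and that in genes with a peak within 1 kb of an end 0.0774 in place of -1.5, while the start-site difference was -0.502. An equal number of peaks per list gave -0.5, -0.5, 0 and -0.5 for these 4 differences in that order, and peaks with a -log10 q of 5 or more gave -2, -1, -0.5 and -1. Thinning also reversed Mau2 (0.0854) and Wapl (0.0949). For Wapl a -log10 q of at least 5 gave 0.5, as did an equal number of peaks per list. Nipbl ranged from -1 to 0 and Stag2 from -1 to -0.478, and Smc1a and Pds5b, both at 0 as reported, ranged from -0.5 to 0.5 and from -1 to 1. Under both settings the gene with a peak in both WT lists and neither miR-187 list was Stag1 rather than Stag2. A distance of 3 kb in place of 1 kb from a gene end gave -3.5.

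Leaving out 1 library at a time gave differences of -8 to -1 peaks, -6 to -1 genes with a peak, -3 to 0 genes with a peak at an end and -4.5 to -0.5 genes with a start-site peak. The number of genes with the Stag2 pattern ranged from 1 to 4, with 4 without WT replicate 1 (Nipbl, Smc3, Stag2 and Pds5a) and 4 without miR-187 replicate 1 (Mau2, Stag1, Stag2 and Wapl), since fewer lists then set the pattern. Regions in at least 2 libraries ranged from 2 to 6, with 2 without WT replicate 2. Same-numbered libraries share only a number: their deviations correlated at r = -0.158 over 21887 genes, and with the replicate block the differences stayed at -4.5, -3.5, -1.5 and -2.5 with no call. Crossed numbers, added after the data were seen, gave the same differences and 0 calls. At the lowest backgrounds 4 to 7 reads made a peak, so a place with fewer reads could not be listed.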
